A study of Mus musculus with 6 samples.

Results

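The regenerating family genes Reg1, Reg3a, Reg3b and Reg3g encode small secreted C-type lectins and lie in 1 cluster on mouse chromosome 6. These 4 genes, of 53379 in the count files and 19339 that passed the filter on low counts, were picked by name for their large rise between the groups described here. Their values in that contrast are therefore given as a description, with no test. All 4 passed the filter on low counts.

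RNA was sequenced from Lgr5-EGFPhi stem cells, sorted by flow cytometry from dissociated crypts of the proximal 1/3 of the small intestine of adult C57BL/6 mice. There were 3 libraries labelled Klf5-KO, from mice that carried Lgr5-EGFP-IRES-CreERT2, the Rosa-tdTomato reporter and Klf5fl/fl, and 3 control libraries, from mice that carried Lgr5-EGFP-IRES-CreERT2 and Rosa-tdTomato. The controls thus carried the same Cre, reporter and tdTomato alleles without a floxed Klf5, and mice of both groups received 1 mg of tamoxifen per injection on 5 consecutive days. EGFP and the tamoxifen-activated Cre are both expressed from the Lgr5 locus, so deletion and sorting both depend on Lgr5 being active. No exact age is given. Nor is it stated that replicates came from different animals, so a p-value here sets a difference against a spread that may be technical.

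Reg proteins are made by the gut epithelium and by the exocrine pancreas. In the mouse small intestine Reg3g and Reg3b are released by Paneth cells and enterocytes and kill bacteria near the epithelium. Their transcription is known to be raised by interleukin 22 through its receptor and STAT3, and by microbial products through Toll-like receptors and MyD88. Reg1 was first described in regenerating pancreatic islets and is studied as a growth factor, and Extl3, an enzyme of heparan sulfate synthesis, is a proposed receptor of Reg proteins.

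Depth was 66431695 to 72240451 counts in the libraries labelled Klf5-KO and 61563625 to 77666540 counts in the control libraries. Levels are given as read counts normalised to library size (CPM), after scaling by the trimmed mean of M values (TMM), and an adjusted p is from edgeR's quasi-likelihood test with Benjamini-Hochberg adjustment over all 19339 tested genes. With that test 2581 genes were higher and 2413 lower in the libraries labelled Klf5-KO, and 1605 and 1467 when Klf5-KO replicate 1 was left out. Klf5 itself went against the labels: it was measured at 880, 918 and 877 CPM in Klf5-KO replicates 1, 2 and 3, against 480, 512 and 547 CPM in control replicates 1, 2 and 3. The log2 difference was 0.80 (SE 0.10, edgeR adjusted p = 6.3e-04). The count is summed over the whole gene and does not show whether the floxed exons were deleted, so the groups are called by their labels throughout, and each direction below rests on those labels. Lgr5 and Olfm4, which define these stem cells, were detected in every library, Lgr5 at 81.2 to 96.8 CPM in libraries labelled Klf5-KO and 128 to 163 CPM in control libraries. The edgeR test called both genes lower in the libraries labelled Klf5-KO. Klf5-KO replicate 2 and control replicate 3 stood apart for genes described below, and values without them are given beside the results they touch.

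The promoters of the 4 genes are shown first, for the sequence that Reg3b and Reg3g share at their start sites and for the motifs searched in them. Each sequence below is the 300-base window around the RefSeq start site on GRCm38.p6, written along the strand of the gene; the capitals mark matches to the TATA box letters TATAAA and to the STAT letters TTCNNNGAA, on either strand. Reg1 lies on the plus strand (chr6:78425733-78426032), as do Reg3a (chr6:78380459-78380758) and Reg3b (chr6:78370635-78370934), and Reg3g lies on the minus strand (chr6:78468825-78469124).
Reg3g: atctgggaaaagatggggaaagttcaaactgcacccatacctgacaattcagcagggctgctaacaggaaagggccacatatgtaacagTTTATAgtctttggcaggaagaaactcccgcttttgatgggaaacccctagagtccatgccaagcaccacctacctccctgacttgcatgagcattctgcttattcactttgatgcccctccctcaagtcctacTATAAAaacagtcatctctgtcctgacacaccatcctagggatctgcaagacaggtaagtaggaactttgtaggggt
Reg3b: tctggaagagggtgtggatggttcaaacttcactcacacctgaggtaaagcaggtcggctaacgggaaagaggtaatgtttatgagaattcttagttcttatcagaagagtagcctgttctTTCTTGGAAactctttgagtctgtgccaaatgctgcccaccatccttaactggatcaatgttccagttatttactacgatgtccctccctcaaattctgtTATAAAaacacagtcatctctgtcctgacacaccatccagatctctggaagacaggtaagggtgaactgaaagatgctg
Reg1: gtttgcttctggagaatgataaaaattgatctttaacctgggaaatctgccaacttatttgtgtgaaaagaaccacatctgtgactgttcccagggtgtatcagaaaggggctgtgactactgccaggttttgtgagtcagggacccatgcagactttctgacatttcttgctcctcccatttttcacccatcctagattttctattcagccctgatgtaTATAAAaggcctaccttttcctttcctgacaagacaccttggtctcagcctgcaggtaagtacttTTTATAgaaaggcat
Reg3a: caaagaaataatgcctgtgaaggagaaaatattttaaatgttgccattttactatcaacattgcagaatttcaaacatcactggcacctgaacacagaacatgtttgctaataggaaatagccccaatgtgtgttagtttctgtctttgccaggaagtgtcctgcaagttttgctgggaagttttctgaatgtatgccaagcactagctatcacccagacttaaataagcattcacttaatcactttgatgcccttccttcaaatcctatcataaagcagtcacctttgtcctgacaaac

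A TATAAA match lay 30 bases before the start site of Reg1, 29 bases before that of Reg3b and 27 bases before that of Reg3g, and on neither strand was there one in the window of Reg3a. Of 32851 promoter windows of the same length, 13.6% held these letters on either strand. The STAT letters matched once among the 4 windows, as TTCTTGGAA 129 bases before the start site of Reg3b; 8.3% of all windows held them. Of the other motifs searched on both strands, the KLF letters CCNCNCCC were found 241 bases before the start of Reg3b, on the opposite strand, and 46 bases before that of Reg3g, against 49.5% of all windows. The NF-kB motif, searched as GGG followed after 5 bases by CC, was found 123 bases before the start of Reg3g, where the same bases match it on either strand, and in 50.8% of all windows. The C/EBP letters TTGCNNAA were found 190 bases before the start of Reg3a and in 10.8% of all windows. The GC box GGGCGG was in none of the 4 and in 35.7% of all windows. The KLF letters and the GC box can overlap in 1 run of bases. These matches describe letters only, not bound sites.

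The windows of Reg3b and Reg3g shared a run of 29 identical bases, acagtcatctctgtcctgacacaccatcc, which begins 20 bases before both start sites. The longest run shared by any other pair of the 4 windows was 8 to 14 bases. Across the spliced transcripts, identity was 75.5% between Reg3a and Reg3b, 74.4% between Reg3b and Reg3g, 70.3% between Reg3a and Reg3g, and 64.6 to 65.2% between Reg1 and the others. No stretch of 50 bases of a member's transcript was found in the transcripts of another gene. At 30 bases, Reg3b and Reg3g shared 6 stretches, under 1% of either transcript, and no other stretch was shared. No annotated gene overlapped a member on either strand.

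Reg3g (ENSMUSG00000030017.2, chromosome 6, 78466269 to 78468872, minus strand, mm10) encodes a lectin that binds peptidoglycan and kills Gram-positive bacteria. It had 119622, 324672 and 126677 counts in Klf5-KO replicates 1, 2 and 3, against 16082, 2403 and 8515 counts in control replicates 1, 2 and 3. After scaling these were 1747, 5057 and 1749.6 CPM in libraries labelled Klf5-KO and 221, 31.2 and 137 CPM in control libraries. The groups did not overlap: the lowest library labelled Klf5-KO was 7.91 times the highest control. The mean was 2851 ± 1910.4 CPM in libraries labelled Klf5-KO and 129.9 ± 95.2 CPM in control libraries (SD, n = 3 each), and the fitted log2 difference was 4.46 (SE 0.71), a 22.0-fold difference.

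Reg3b (ENSMUSG00000071356.7, chromosome 6, 78370657 to 78373466, plus strand) encodes a close relative that acts mainly on Gram-negative bacteria. It had 62966, 278755 and 54743 counts in Klf5-KO replicates 1, 2 and 3, and 12987, 1845 and 4572 counts in control replicates 1, 2 and 3. This gave 919.7, 4342 and 756 CPM in libraries labelled Klf5-KO, against 178.5, 23.9 and 73.8 CPM in control libraries. Klf5-KO replicate 2 alone was 5.18 times the mean of the other libraries of its group, and control replicate 1 was 7.46 times control replicate 2. The groups nevertheless did not overlap, the lowest library labelled Klf5-KO being 4.24 times the highest control. The fitted log2 difference was 4.45 (SE 0.87), a 21.8-fold difference; without Klf5-KO replicate 2 it was 3.21, and without control replicate 1 it was 5.36. For Reg3g the same omissions gave 3.77 and 5.08.

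Reg1 (ENSMUSG00000059654.7, chromosome 6, 78422711 to 78428667, plus strand) had the largest fitted fold of the 10594 genes that averaged 5 CPM or more. Among all 19339 tested genes it was in place 10, in the same contrast for which it was chosen. It had 75135, 46552 and 92269 counts in Klf5-KO replicates 1, 2 and 3, and 1270, 475 and 1379 counts in control replicates 1, 2 and 3. In CPM it was at 1097.5, 725 and 1274 in libraries labelled Klf5-KO, against 17.45, 6.16 and 22.3 in control libraries. In contrast to the Reg3 genes, Klf5-KO replicate 2 was the lowest of its group, and even this library was 32.6 times the highest control. The log2 difference was 6.08 (SE 0.47), a 67.6-fold difference, and it lay between 5.70 and 6.66 under every alternative run.

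Reg3a (ENSMUSG00000079516.2, chromosome 6, 78380709 to 78383827, plus strand) carries the name of a human bactericidal lectin of the gut and pancreas. It was far less abundant, with 940, 1271 and 847 counts in Klf5-KO replicates 1, 2 and 3, against 191, 110 and 169 counts in control replicates 1, 2 and 3. In CPM these were 13.7, 19.8 and 11.7 in libraries labelled Klf5-KO and 2.625, 1.43 and 2.73 in control libraries. Klf5-KO replicate 2 was again the highest and control replicate 2 again the lowest, and the groups did not overlap. The log2 difference was 2.74 (SE 0.28), a 6.69-fold difference, with a range of 2.49 to 2.90 over all alternatives run.

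Each of the 4 genes thus had every library labelled Klf5-KO above every control library. This held for 22.2% of all tested genes, the opposite order for 21.0%, and the edgeR test called 13.3% of them higher and 12.5% lower, 25.8% in all. Since the members were chosen on this contrast, nothing is read from their count against those shares.

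**Figure D1:**
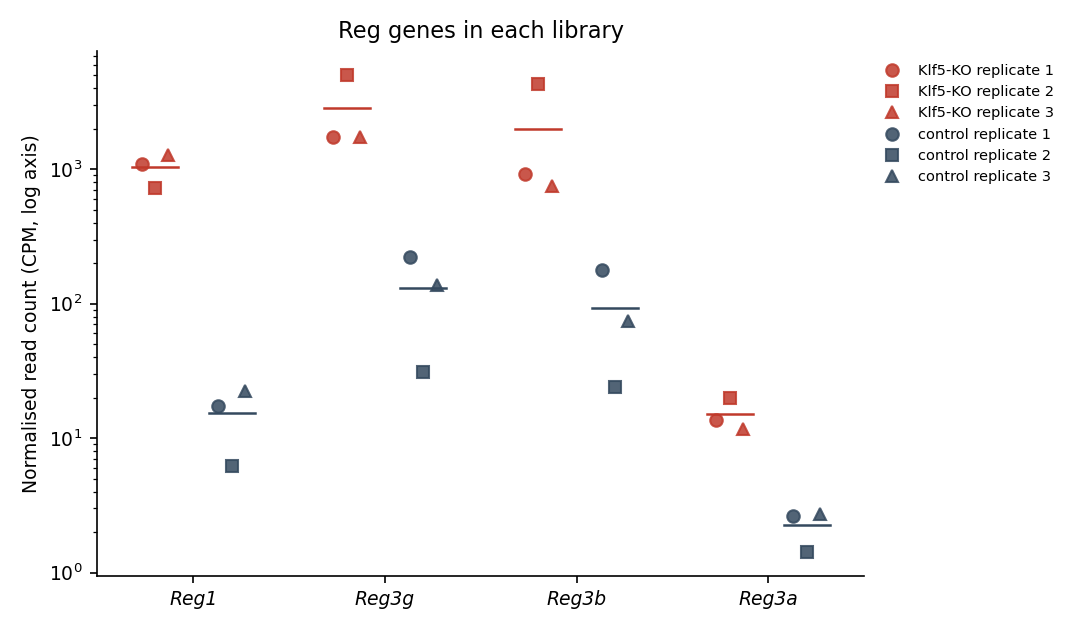
Normalised read count (CPM, log axis) of Reg1, Reg3g, Reg3b and Reg3a in each library, with circles, squares and triangles for replicates 1, 2 and 3 and a line at the mean of each group, Klf5-KO in red left of control in blue. Klf5-KO replicate 2 (red square) is the highest of its group for Reg3g, Reg3b and Reg3a and the lowest for Reg1, and control replicate 2 (blue square) is the lowest control for each gene.

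The place of Klf5-KO replicate 2 within its group separated Reg1 from the Reg3 genes, while the order of the control libraries did not. Klf5-KO replicate 2 was above the mean log2 level of its group by 1.59 for Reg3b, 1.02 for Reg3g and 0.43 for Reg3a, and was below it for Reg1, at -0.47. Among tested genes, 35.0% had their highest Klf5-KO value in replicate 2. Of the 10594 genes that averaged 5 CPM or more, ranked by how far Klf5-KO replicate 2 stood above its group, Reg3b was in place 2, Reg3g in place 6, Reg3a in place 76 and Reg1 in place 10478. That average was over all libraries. Reg3a, at a mean of 2.26 CPM in control libraries and 15.1 CPM in those labelled Klf5-KO, reached it only through the latter group. Among the controls, replicate 1 was the highest for Reg3b and Reg3g and replicate 3 for Reg1 and Reg3a. Control replicate 2 lay below its group mean for all 4 genes, at -1.12 for Reg1, -0.60 for Reg3a, -1.51 for Reg3b and -1.66 for Reg3g on the log2 scale.

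The spread within groups was accordingly wide. The biological coefficient of variation fitted to each gene was 89.1% for Reg3b, 74.1% for Reg3g, 47.7% for Reg1 and 30.2% for Reg3a, where the fitted trend at their abundance was 14.0 to 16.3%. Set among the 500 tested genes nearest in abundance, these values stood at the percentiles 98.4, 97.8, 98.2 and 94.2. Counting error is small beside this spread, since the least abundant library of the least abundant member still had 110 counts.

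The 4 genes together took a larger share of the sequenced RNA in the libraries labelled Klf5-KO. They made up 0.386, 0.980 and 0.380% of all counts in Klf5-KO replicates 1, 2 and 3, against 0.0423, 0.00622 and 0.0238% in control replicates 1, 2 and 3. By mean CPM, Reg3g ranked 11, Reg3b 24, Reg1 56 and Reg3a 8252 in libraries labelled Klf5-KO, and 1283, 2030, 8177 and 11917 in control libraries, among the tested genes. Reg3g took 46.1 to 49.9% of the members' counts in libraries labelled Klf5-KO and 49.7 to 58.2% in control libraries. Reg1 took 29.05, 7.15 and 33.6% of them in Klf5-KO replicates 1, 2 and 3, against 4.16, 9.83 and 9.42% in control replicates 1, 2 and 3. In RNA from sorted cells in bulk, more RNA per cell and more cells that make these transcripts cannot be told apart.

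Per length of the spliced transcript, the mean level in libraries labelled Klf5-KO was 3698 ± 2478 CPM per kb for Reg3g, 2562 ± 2586 for Reg3b, 1342 ± 365 for Reg1 and 18.3 ± 5.11 for Reg3a (SD, n = 3). In control libraries it was 168 ± 123 CPM per kb for Reg3g, 118 ± 101 for Reg3b, 19.9 ± 10.8 for Reg1 and 2.74 ± 0.877 for Reg3a (SD, n = 3). On this scale Reg3g lay above Reg3b in each of the 6 libraries, although the gap between their means was within the SD over libraries in both groups. Reg3g also lay above Reg1 in each of the 6, again with a gap between the means in libraries labelled Klf5-KO within the SD of Reg3g. Reg3b lay above Reg1 in 4 of the 6, the exceptions being Klf5-KO replicates 1 and 3. Reg3a was the lowest member in every library. Over the union of annotated exons, which for Reg3g spans 2114 bases and includes a retained intron, the mean in libraries labelled Klf5-KO was 1757 ± 1773 CPM per kb for Reg3b and 1349 ± 904 for Reg3g (SD, n = 3). That order of the means came from Klf5-KO replicate 2: Reg3b was at 805, 3802 and 662 CPM per kb and Reg3g at 826.5, 2392 and 828 in Klf5-KO replicates 1, 2 and 3, and each gene was the higher in 3 of the 6 libraries. Reg1 over its union of exons lay above Reg3g in Klf5-KO replicates 1 and 3, at 1214 and 1410 CPM per kb, and below it in the other libraries. The order of Reg1, Reg3b and Reg3g thus depends on the length used, while Reg3a was the lowest on both.

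The family has other genes in the mouse, which were not among those chosen. Reg3d, known from the pancreas, lies between Reg3b and Reg3a on the opposite strand, and its promoter window holds the STAT letters 238 bases before the start site. It had only 24, 44 and 17 counts in Klf5-KO replicates 1, 2 and 3, against 2, 2 and 3 counts in control replicates 1, 2 and 3. It was higher in the libraries labelled Klf5-KO by 3.59 on the log2 scale (SE 0.59, edgeR adjusted p = 0.0025). The summed counts differed 12.5-fold, with an exact 95% interval of 5.83 to 32.1 that covers counting error only and takes counts as independent. As for the other Reg3 genes, Klf5-KO replicate 2 was the highest. Reg2, a pancreatic islet gene, had 3, 10 and 2 counts in Klf5-KO replicates 1, 2 and 3 and 1, 1 and 0 counts in control replicates 1, 2 and 3. It was too low to be tested, and its summed counts had a ratio of 7.75 with an exact 95% interval of 1.80 to 69.8. If the mates of a read pair were counted apart, the intervals for Reg3d and Reg2 are too narrow even for counting error.

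Reg4 lies outside the cluster, on chromosome 3 (98222156 to 98236748, plus strand), and marks secretory cells of the mouse gut. It was at 76.4, 50.1 and 77.25 CPM in Klf5-KO replicates 1, 2 and 3, against 14.8, 18.6 and 123 CPM in control replicates 1, 2 and 3. The groups overlapped through control replicate 3, and the log2 difference of 0.38 did not pass the test (SE 0.67, edgeR adjusted p = 0.71). Without control replicate 3 it was 2.02 (edgeR adjusted p = 4e-04), and without control replicate 1 or 2 it was -0.06 or -0.04. Paneth cell markers moved with Reg4 in that library, at 10632 to 13083 summed CPM in libraries labelled Klf5-KO and at 1887, 2371 and 22646 in control replicates 1, 2 and 3. Their part in the Reg4 values was not tested.

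**Figure D2:**
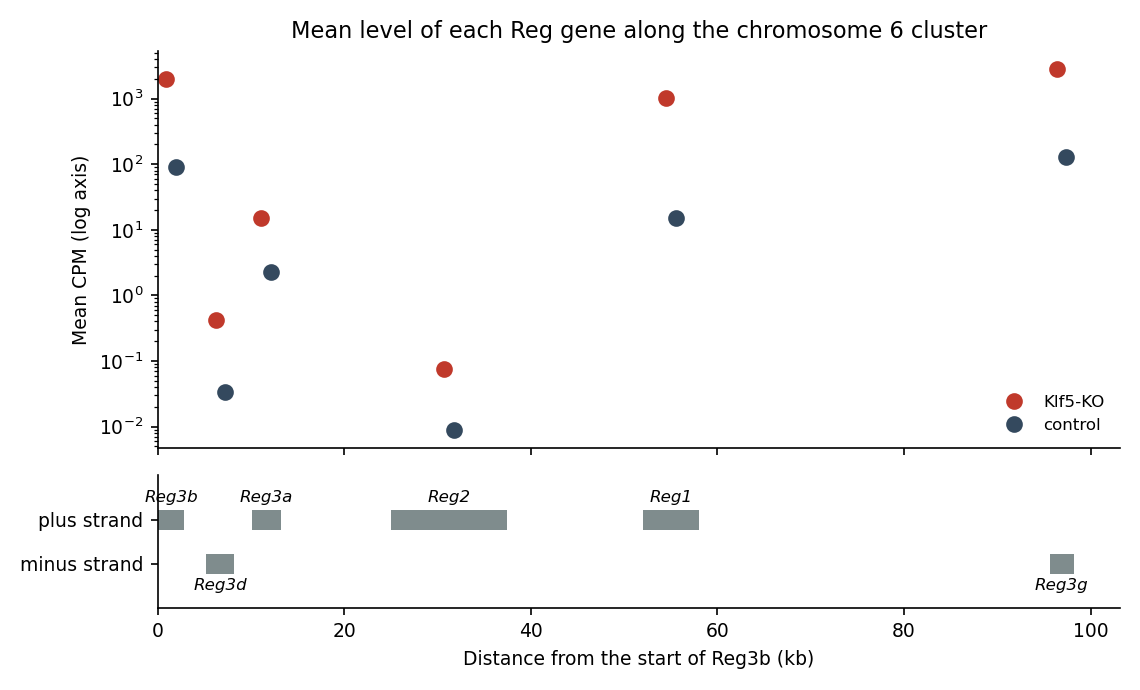
Mean CPM (log axis) of the 6 Reg genes of the chromosome 6 cluster, Klf5-KO in red left of control in blue, above a map of the genes on each strand by distance in kb from the start of Reg3b. Every gene is higher in libraries labelled Klf5-KO, from a mean of 2851 against 129.9 CPM for Reg3g to a few counts for Reg2, which was not tested.

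The cluster spans 98.2 kb. Within 2 Mb on either side the annotation holds 34 other genes, none of which had enough counts to be tested, and 25 of them had no count in any library. The neighbouring sequence therefore gave no measured gene against which the cluster's levels could be set.

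Upstream of the Reg genes, the list of interleukin 22 and interleukin 6 family receptors and STAT3 signalling had 17 tested genes of 19. Of these, 4 were higher and none lower in libraries labelled Klf5-KO, beside 13.3% and 12.5% of all tested genes, and the list's median log2 difference was 0.20 where that of all tested genes was -0.01. Stat3, the transcription factor that carries the interleukin 22 signal, was at 126, 160 and 113 CPM in Klf5-KO replicates 1, 2 and 3, against 83.9, 59.65 and 65.5 CPM in control replicates 1, 2 and 3. Its log2 difference was 0.93 (SE 0.16, edgeR adjusted p = 0.0028), and Klf5-KO replicate 2 was its highest library. Over the list, that library was the highest of its group for 6 of the 17 tested genes, 35.3%, beside 35.0% of all tested genes. Il11ra1, the interleukin 11 receptor chain, rose by 0.96 (edgeR adjusted p = 3.6e-04). Il22ra1, the specific chain of the interleukin 22 receptor, was at 50.03, 37.9 and 45.9 CPM in Klf5-KO replicates 1, 2 and 3 and at 24.6, 22.0 and 34.8 CPM in control replicates 1, 2 and 3. Its difference of 0.72 (edgeR adjusted p = 0.015) did not pass without Klf5-KO replicate 1 (edgeR adjusted p = 0.062) or without control replicate 2 (edgeR adjusted p = 0.054). The kinase gene Jak1 rose by 0.30 (edgeR adjusted p = 0.041), a call lost without any 1 library other than Klf5-KO replicate 3. With either Klf5-KO replicate 1 or control replicate 2 left out, 2 genes of the list were called.

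The list of epithelial STAT3 target genes other than Reg had 18 tested genes of 22, of which 4 were higher, 3 lower and 11 not called, where 13.3% and 12.5% of all tested genes were higher and lower, with a median log2 difference of 0.36. Lcn2, the iron-scavenging defence protein lipocalin 2, was at 10.9, 37.6 and 9.43 CPM in Klf5-KO replicates 1, 2 and 3, against 2.91, 1.504 and 2.65 CPM in control replicates 1, 2 and 3. Steap4, a metalloreductase, was at 3.83, 15.7 and 5.04 CPM in Klf5-KO replicates 1, 2 and 3, against 1.11, 0.648 and 1.065 CPM in control replicates 1, 2 and 3. For both, as for Reg3b, Klf5-KO replicate 2 stood far above the other libraries of its group. Their log2 differences were 3.04 (SE 0.52, edgeR adjusted p = 0.0031) for Lcn2 and 3.12 (SE 0.52, edgeR adjusted p = 0.0027) for Steap4. Without Klf5-KO replicate 2 they were 2.13 and 2.26, still past the test with edgeR adjusted p = 0.0014 and 0.0013.

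The other genes of that list moved less uniformly. Retnlb, a goblet cell antimicrobial protein, rose by 2.91 (edgeR adjusted p = 0.018), and Saa3, an acute phase protein, by 1.57 (edgeR adjusted p = 0.021). Neither passed without Klf5-KO replicate 2 (edgeR adjusted p = 0.065 and 0.076) or without control replicate 2 (edgeR adjusted p = 0.065 and 0.072), and Saa3 did not pass without Klf5-KO replicate 3 (edgeR adjusted p = 0.052). Without control replicate 3 the difference of Retnlb was 4.2. Nos2, the inducible nitric oxide synthase, fell by 1.24 (edgeR adjusted p = 0.003). Duox2, an epithelial oxidase, had a log2 difference of -1.0 (edgeR adjusted p = 0.026) and the mucin Muc1 one of -1.15 (edgeR adjusted p = 0.031). The Duox2 call was lost without any 1 library other than Klf5-KO replicate 2 or control replicate 2, and the Muc1 call without any 1 library other than control replicate 2. Of the whole list, 9 genes were higher with no filter on low counts, 7 with DESeq2 and 2 without Klf5-KO replicate 2 or control replicate 2, and 1 was lower without Klf5-KO replicate 1 or 3 or control replicate 1 or 3. Socs3, the feedback inhibitor that STAT3 itself induces, was at 28.3, 100.2 and 30.55 CPM in Klf5-KO replicates 1, 2 and 3, against 30.5, 23.9 and 33.5 CPM in control replicates 1, 2 and 3. Klf5-KO replicate 2 stood alone, the other libraries labelled Klf5-KO lay within the range of the controls, and the difference of 0.85 did not pass the test (SE 0.42, edgeR adjusted p = 0.17); without Klf5-KO replicate 2 it was 0.03. With no filter on low counts the Socs3 difference of 0.88 did pass (edgeR adjusted p = 0.0003). Klf5-KO replicate 2 was the highest library of its group for 12 of the 18 genes, 66.7%, beside 35.0% of all tested genes.

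**Figure D3:**
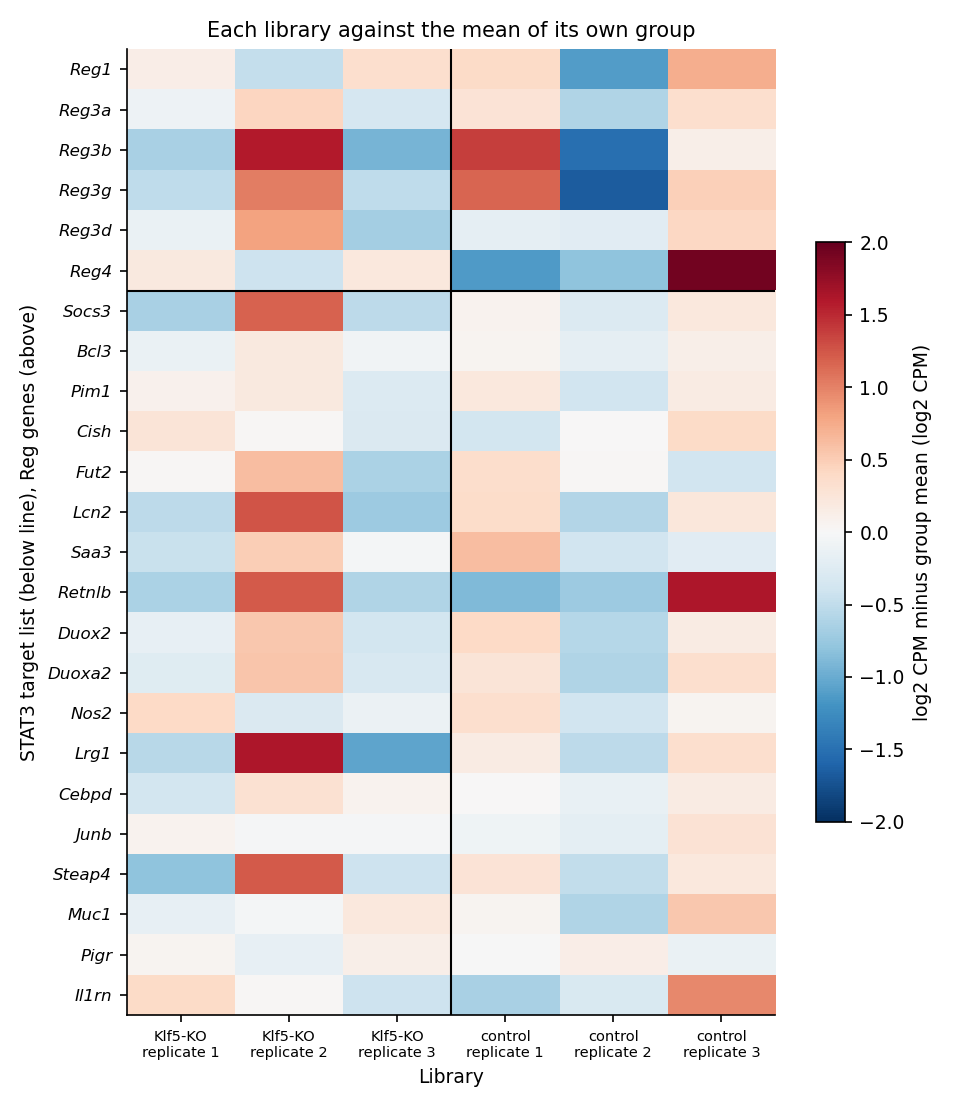
Log2 CPM of each library minus the mean of its own group (colour scale) for 6 Reg genes above the line and the 18 tested STAT3 target genes below it, with the 3 libraries labelled Klf5-KO left of the 3 control libraries. The column of Klf5-KO replicate 2 is red for Reg3b (1.59), Reg3g (1.02), Socs3 (1.18) and Lcn2 and blue for Reg1 (-0.47).

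The list of Toll-like receptors, MyD88, the interleukin 17 receptor and NF-kB had 25 tested genes of 26, with 7 higher, 3 lower, beside 13.3% and 12.5% of all tested genes, and a median log2 difference of 0.10. Tlr5, the flagellin receptor, was at 1.64, 1.95 and 1.42 CPM in Klf5-KO replicates 1, 2 and 3, against 0.261, 0.441 and 0.307 CPM in control replicates 1, 2 and 3. It rose by 2.30 (SE 0.28, edgeR adjusted p = 5.7e-04). The kinase genes Irak2 and Ripk2 rose by 0.64 (edgeR adjusted p = 0.0021) and 0.73 (edgeR adjusted p = 0.0035), and Tlr2 by 0.91 (edgeR adjusted p = 0.0055). Relb and Nod1, an NF-kB subunit and a sensor of bacterial cell walls, fell by 0.90 (edgeR adjusted p = 0.0048) and 0.67 (edgeR adjusted p = 0.0035). Myd88, the adaptor itself, had a log2 difference of -0.17 that did not pass the test (SE 0.12, edgeR adjusted p = 0.35). Klf5-KO replicate 2 was the highest of its group for 8 of the 25, where 35.0% of all tested genes had it highest.

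Of 17 cytokine genes, 9 were tested, with 6 higher and 1 lower, beside 13.3% and 12.5% of all tested genes, and a median log2 difference of 0.80. The neutrophil chemokine genes Cxcl2 and Cxcl1 rose by 3.00 (edgeR adjusted p = 0.0035) and 1.78 (edgeR adjusted p = 0.0098), and Il18, a cytokine of the epithelium, rose by 0.80 (edgeR adjusted p = 0.0089). Without control replicate 1 the differences of Cxcl2 and Cxcl1 were 3.89 and 2.43. Ccl20 rose by 1.05 (edgeR adjusted p = 0.029), Il33 by 1.13 (edgeR adjusted p = 0.017) and Tnf by 0.69 (edgeR adjusted p = 0.044), and Il17f fell by 2.11 (edgeR adjusted p = 0.013). Calls of these last 4 genes depended on single libraries: without Klf5-KO replicate 1 or 3, 3 genes of the list were higher and none lower. Without control replicate 2, 2 were lower, and 3 were with no filter on low counts. Il22, the cytokine best known to raise Reg3 genes, had 0, 2 and 0 counts in Klf5-KO replicates 1, 2 and 3 and 1, 0 and 0 counts in control replicates 1, 2 and 3. Il6 had 6, 4 and 5 counts in Klf5-KO replicates 1, 2 and 3 and 2, 2 and 0 counts in control replicates 1, 2 and 3. Both were too low to be tested. Il22 is made by immune cells, whose marker sums are given below, and how far the sort removed them was not tested.

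Of the 5 exostosin genes, Extl3, the proposed Reg receptor, was at 36.7, 38.9 and 37.8 CPM in Klf5-KO replicates 1, 2 and 3, against 38.4, 47.6 and 33.4 CPM in control replicates 1, 2 and 3. The groups overlapped, and the log2 difference of -0.07 did not pass the test (SE 0.12, edgeR adjusted p = 0.70). Ext1, a heparan sulfate polymerase subunit, rose by 0.87 (edgeR adjusted p = 4.8e-04), and Extl1 fell by 1.15 (edgeR adjusted p = 0.0015).

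Of 25 other antimicrobial genes tested, 3 were higher (Lcn2, Retnlb and Lypd8) and 3 lower (Pglyrp1, Zg16 and Nos2), shares near the 13.3% and 12.5% of all tested genes, and the median log2 difference was 0.35. The lists overlap, so their counts are not separate results. Lcn2, Retnlb and Nos2 are also on the STAT3 target list, and Lyz1, Ang4, Itln1 and several defensin genes are also Paneth markers. Lypd8, which keeps flagellated bacteria from the epithelium, rose by 0.78 (edgeR adjusted p = 0.0015), and the peptidoglycan-binding Pglyrp1 fell by 1.86 (edgeR adjusted p = 2.4e-04). The Zg16 call was lost without Klf5-KO replicate 2 or 3 or control replicate 1 or 2. Without control replicate 3, whose Paneth cell marker sum was the highest, 14 genes of this list were higher; 7 were with no filter on low counts and 5 with DESeq2. Among 13 tested lectins of the gut outside the Reg family, 4 were higher and 4 lower, with a median of 0.10. The C-type lectin genes Clec2e and Clec2d rose by 2.28 (edgeR adjusted p = 5.6e-05) and 1.34 (edgeR adjusted p = 5.8e-05), and the galectin gene Lgals4 fell by 1.18 (edgeR adjusted p = 2e-04). The count of lower lectins was 2 without Klf5-KO replicate 2 or 3 or without control replicate 2. Of 6 villus base defence genes, Pycard, Lypd8 and Il18 were higher and Nlrp6 and Ccl25 lower.

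Cell types that could carry Reg transcripts into a stem cell sort were read from marker lists, chosen with earlier results of these data known. Their counts of genes called stand beside 13.3% higher and 12.5% lower among all tested genes. Reg genes are abundant in the exocrine pancreas, and 9 of 23 pancreas markers had no count in any library, Prss1, Cpa1, Cpb1 and Ptf1a among them. The summed CPM of the list was 68.0 to 106 in libraries labelled Klf5-KO and 18.7, 26.0 and 177 in control replicates 1, 2 and 3, most of it from Clps, the lipase cofactor. Clps had a log2 difference of 0.24 (edgeR adjusted p = 0.85), and of 2.31 without control replicate 3 (edgeR adjusted p = 4.8e-04). Of the 7 tested pancreas markers 0 were higher and 1, Ctrb1, was lower, at under 1 CPM in every library, a call lost without Klf5-KO replicate 1 or 3 or control replicate 2 or 3. The 16 markers that were not tested had at most 9 counts in any library.

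Paneth cells make Reg3g in the healthy gut. Of 16 Paneth markers edgeR and DESeq2 called 0 in either direction, and at an unadjusted p under 0.05 edgeR had 1 higher and 0 lower. Without control replicate 3, edgeR called 15 of them higher, and with no filter on low counts 3. Their sums are given above beside Reg4. Lyz1, the Paneth lysozyme, was at 1767, 2118 and 2549 CPM in Klf5-KO replicates 1, 2 and 3, against 397, 324 and 4096 CPM in control replicates 1, 2 and 3. Its log2 difference was 0.42 (edgeR adjusted p = 0.74), and 2.57 without control replicate 3 (edgeR adjusted p = 1.3e-04). Control replicate 3 was the highest library for Lyz1. Among the controls it was also the highest for Reg1 and Reg3a, at 22.3 and 2.73 CPM. For Reg3g and Reg3b it lay below control replicate 1. Without control replicate 3, where the log2 ratio of the Paneth marker sums was 2.44, the log2 differences of the members were 4.50 for Reg3g, 4.31 for Reg3b, 6.45 for Reg1 and 2.90 for Reg3a. Within the libraries labelled Klf5-KO the Paneth sum was 10833, 10632 and 13083 CPM in replicates 1, 2 and 3. The part of Paneth cells in the Reg values was not tested.

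Beside 13.3% of all tested genes higher and 12.5% lower, enterocyte markers were higher for 11 of 22 tested genes and lower for none. Their median log2 difference was 0.60. Their summed level was 5904, 3986 and 4779.5 CPM in Klf5-KO replicates 1, 2 and 3, against 3035, 2831 and 3134 CPM in control replicates 1, 2 and 3. Klf5-KO replicate 2, the highest library for Reg3b and Reg3g, was the lowest of its group for this sum, as it was for Reg1. The part of enterocytes in the Reg values was not tested. Without Klf5-KO replicate 1 or without control replicate 2, 7 enterocyte markers were called. The same shares over all tested genes stand beside the lists that follow. Tuft cell markers were higher for 9 of 14, with sums of 153.5 to 277 CPM in libraries labelled Klf5-KO and 104 to 129.9 CPM in control libraries. Goblet cell markers were lower for 5 of 11, with sums of 1241 to 1591 CPM in libraries labelled Klf5-KO and 2479 to 2752 CPM in control libraries. Enteroendocrine markers were lower for 10 of 14, with sums of 99.9 to 109 CPM in libraries labelled Klf5-KO and 173 to 335.5 CPM in control libraries. The number of tuft and enteroendocrine markers called was 5 each without Klf5-KO replicate 1, and 3 goblet cell markers were lower without Klf5-KO replicate 2 or 3.

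Of the 15 stem cell markers themselves 10, Lgr5 and Olfm4 among them, were lower and 1, Prom1, was higher. Their sums were 5463 to 6822 CPM in libraries labelled Klf5-KO and 9722 to 13113.5 CPM in control libraries. Of all tested genes 12.5% were lower and 13.3% higher, shares that also stand beside the lists below. For each of the enterocyte, goblet, enteroendocrine, tuft, stem cell and stroma sums the exact permutation test gave p = 0.10. This is the smallest p it can give with 3 libraries a side, so it could not go under 0.05. For the pancreas, Paneth and immune sums it gave 1.0. Control replicate 3 was the highest library for each of these sums, and the test cannot show that the groups were alike. Immune cell markers summed to 68.3 to 97.0 CPM in libraries labelled Klf5-KO and 61.0 to 98.5 CPM in control libraries, with 1 of 11 tested, Cd4, lower. Stroma, endothelium and muscle markers summed to at most 3.63 CPM in libraries labelled Klf5-KO and 7.05 CPM in control libraries. Immediate early genes, which rise during dissociation, had 1 of 15 higher, Nr4a1, whose call was lost without Klf5-KO replicate 1 or 3 or control replicate 1 or 2. Without control replicate 3, 4 of them were higher. Epithelial injury response genes had 3 of 12 higher and 2 lower, with Clu, a marker of revival stem cells, up by 2.66 (edgeR adjusted p = 1.4e-05) and Krt7 down, at -2.24 (edgeR adjusted p = 1.9e-05). Without Klf5-KO replicate 1, 1 injury gene was higher, without control replicate 3, 5 were, with DESeq2 6 and with no filter on low counts 7. The part of these cell types and genes in the Reg values was not tested.

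**Figure D4:**
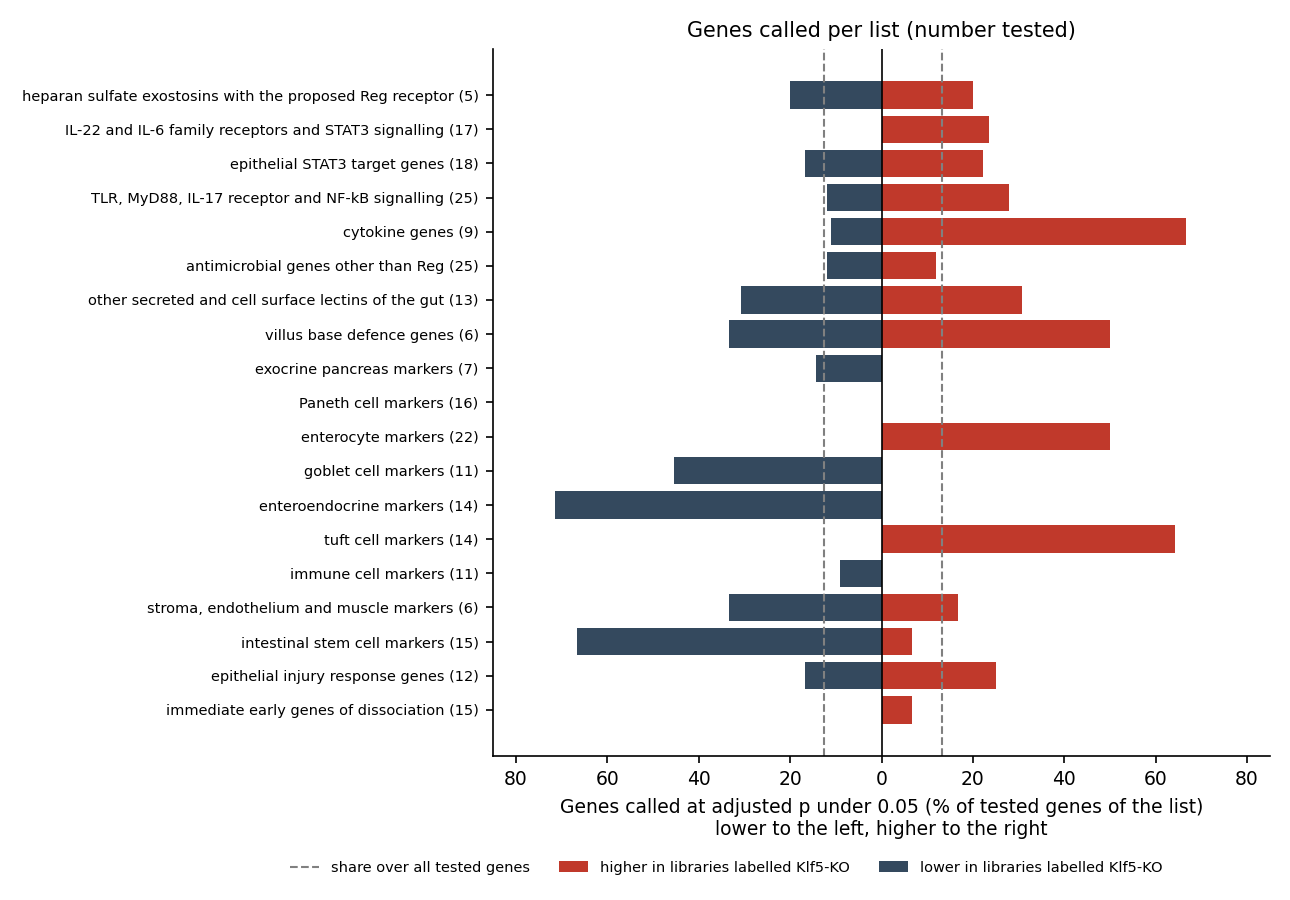
Share of the tested genes of each list (number tested in brackets) called by edgeR at an adjusted p under 0.05, higher in libraries labelled Klf5-KO to the right in red and lower to the left in blue, with dashed lines at the shares over all tested genes, 13.3% and 12.5%. With all libraries, Paneth cell markers have no call (15 are higher without control replicate 3), enterocyte and tuft cell markers only rise, and enteroendocrine markers only fall.

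The genes whose log2 levels followed the mean of the 4 members most closely over the 6 libraries, out of 10102 ranked, were Apex2, Prr5l, Srgap2, Zfp939, Styx, Tmem41b, Cfi, Icam1, Rap1b and Nipsnap3b, with Pearson r of 0.990 to 0.999. This is a description over 6 libraries that fall into the study's groups, so any gene that separates the groups scores high. Prr5l, a component tied to the kinase complex mTORC2, was at 8.34, 16.3 and 8.09 CPM in Klf5-KO replicates 1, 2 and 3, against 0.316, 0.0778 and 0.226 CPM in control replicates 1, 2 and 3. Icam1, an adhesion molecule for leukocytes, was at 18.4, 33.6 and 19.9 CPM in Klf5-KO replicates 1, 2 and 3, against 6.97, 4.51 and 7.02 CPM in control replicates 1, 2 and 3. Cfi, complement factor I, was at 54.05, 84.6 and 57.4 CPM in Klf5-KO replicates 1, 2 and 3, against 30.1, 18.2 and 25.2 CPM in control replicates 1, 2 and 3. All 3 had their highest value in Klf5-KO replicate 2 and their lowest in control replicate 2, as did Reg3g, Reg3b and Reg3a. They were picked for likeness to the members over these same libraries, so the shared order follows from the choice and is no separate result. Their log2 differences were 5.73 for Prr5l (edgeR adjusted p = 5.4e-05), 1.96 for Icam1 (edgeR adjusted p = 7e-04) and 1.41 for Cfi (edgeR adjusted p = 0.0015). The other 7 differed by 0.30 to 0.59, the smallest being Apex2, whose call was lost without any 1 library. Zfp939 did not pass without any 1 library other than control replicate 3, and Styx did not pass without any 1 of the libraries labelled Klf5-KO or without control replicate 2.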

How the data were processed

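The authors deposited whole-number read counts per gene for 6 libraries, 3 labelled Klf5-KO and 3 control. The submitters' processing notes name the aligner STAR 2.5.2a, the build mm10 and DESeq2 1.18.1. Per the file headers, counting used featureCounts 1.4.3-p1 with GENCODE vM16 on the reverse strand, with no option for read pairs or for reads mapped to several places; 58.8% of the counts between 1 and 10 were even, so mates may have been counted apart. Symbols came from GENCODE vM21, which matched 53274 of 53379 gene IDs, and promoter windows from RefSeq (GRCm38.p6), which matched all 7 Reg genes. RefSeq start sites need not be the outermost starts of the counted gene models.

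Genes were filtered with filterByExpr, libraries scaled with TMM, and groups compared by the quasi-likelihood test of edgeR 4.0.16 in R 4.3.3, with Benjamini-Hochberg adjustment over 19339 genes and a threshold of 0.05. SE is the log2 difference over the square root of F. The scripts were tested on simulated data. The common biological coefficient of variation was 17% and genes holding ribosomal RNA-like sequence took 13.5 to 18.3% of counts. With 3 counts as the floor, a count of 0 allows 0.0386 to 0.0487 CPM. Floors and intervals cover counting error only and take counts as independent, which does not hold if mates were counted apart.

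The members and gene lists were chosen with earlier results of these data known. Named genes were the Reg genes, Klf5, up to 3 called genes with the smallest adjusted p per list (or the most abundant), and the 10 genes most like the members; others were named after their values were seen. The alternatives were RLE and upper-quartile scaling, no filter, a CPM filter, DESeq2 1.42.0, a robust dispersion fit, a block for the replicate number, removal of structural RNA genes and leaving out each library. Identity was computed between spliced transcripts, since proteins were not used here.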

Additional observations from a re-analysis of the deposited data

How the results depend on the processing

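Of 2195 values recomputed under the alternatives for 160 results, 1947 kept their direction and side of the threshold or stayed within the spread. The log2 differences of the 4 members kept their sign under every alternative run. Leaving out 1 library at a time gave 1605 to 2740 higher and 1467 to 2664 lower genes, 37 to 81 higher and 33 to 44 lower listed genes (54 and 45 with all libraries), a Reg4 difference of -0.06 to 2.02, and log2 ratios of marker sums of -0.27 to 1.92 for the pancreas, -0.12 to 2.44 for Paneth and -0.18 to 0.17 for immune markers, the last also -0.00 under upper-quartile scaling. Leaving out both Klf5-KO replicate 2 and control replicate 3, added after seeing the data, gave 87 higher listed genes and a Reg4 difference of 2.21. Over the shorter transcript, identity was 60.7% between Reg1 and Reg3b and 58.9% between Reg1 and Reg3g. Same-numbered libraries did not deviate together (correlations -0.00814, 0.00593 and -0.0385). It is not stated that the numbers pair libraries. Each correlation ran over the tested genes for 1 pair of libraries, and so few pairs cannot show that the numbers do not pair them. With the replicate block 2286 genes were higher and 2088 lower, and Reg4 differed by 1.06. Of 91 other named genes, 79 were called and 20 of these lost the call under some alternative, 6 gained one and 9 changed sign. With libraries left out, these 9 ranged from -0.26 to 2.46 for Clps, -0.12 to 2.44 for Defa24, -0.08 to 2.59 for Lyz1, -0.20 to 0.08 for Extl3, -0.35 to 1.37 for Lrg1, -0.33 to 0.48 for Mt1, -0.95 to 0.55 for Mt2, -0.09 to 2.53 for Zbtb16 and -0.56 to 0.20 for Dmbt1. Dmbt1 was also at -0.01 with upper-quartile scaling, -0.00 with the CPM filter and -0.09 with the replicate block. Causes were not tested. Depth limits Reg2 and Reg3d, with at most 10 and 44 counts in a library.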

Other observations

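Klf5-KO replicate 2 also carried the highest level of its group for genes outside the lists. The transcription factor gene Zbtb16 had the largest excess of that library, at 10.1, 55.8 and 8.61 CPM in Klf5-KO replicates 1, 2 and 3, against 2.24, 17.6 and 6.38 CPM in control replicates 1, 2 and 3. The metallothionein gene Mt2 was at 7.48, 29.6 and 11.1 CPM in Klf5-KO replicates 1, 2 and 3, against 11.2, 10.6 and 32.8 CPM in control replicates 1, 2 and 3. Mt1 was at 46.8, 119.5 and 51.5 CPM in Klf5-KO replicates 1, 2 and 3, against 46.8, 57.0 and 84.8 CPM in control replicates 1, 2 and 3. Unlike these, Inf2, an actin-nucleating formin, was above every control in each library labelled Klf5-KO, at 71.7, 184.6 and 57.8 CPM in replicates 1, 2 and 3, against 16.2, 12.9 and 15.9 CPM in control replicates 1, 2 and 3. These genes were named after their values were seen, and no explanation of the pattern was tested.

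Next to Reg3g, the processed pseudogene Gm21392 (chromosome 6, 78482693 to 78483664, plus strand) had 16, 6 and 13 counts in Klf5-KO replicates 1, 2 and 3 and no count in any control library. It was too low to be tested, and its highest library was not the one in which Reg3g was highest. Dmbt1, a scavenger receptor of the gut mucosa, was at 1961, 4296 and 1972.5 CPM in Klf5-KO replicates 1, 2 and 3, against 3205, 2608 and 2401 CPM in control replicates 1, 2 and 3, so that Klf5-KO replicate 2 was its highest library of all 6.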
